A study of Rattus norvegicus with 4 samples.

Results

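Podocytes are the visceral epithelial cells of the kidney glomerulus, and the genes described here are 9 genes known for their work or for their injury. They were chosen by symbol: every probe set whose gene symbol in the platform annotation is Nphs1, Podxl, Synpo, Ptpro, Tcf21, Actn4, Nes, Cdkn1c or Uchl1 was taken. That gave 13 probe sets among 15866 on the array, or 9 of 10411 named genes. Kidney RNA came from male rats of 9 weeks, of the inbred spontaneously hypertensive strain (SHR) or of Brown Norway (BN), exposed before birth to nicotine or to saline. The labels give no dose or route for either agent. Each of the 4 groups was 1 pool of RNA on 1 Affymetrix RAE-230A array, from 13 animals for SHR nicotine and 12 each for SHR saline, BN nicotine and BN saline. So no group has a replicate, and the spread between animals cannot be seen.

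The foot processes of podocytes wrap the glomerular capillaries and meet at the slit diaphragm, a thin junction that completes the filter between blood and urine. An actin cytoskeleton holds the foot processes in shape, and a charged surface coat keeps neighbouring processes apart. The cells leave the cell cycle as they mature, and in disease they can lose foot processes or detach, which lets protein into the urine. Uchl1 encodes a ubiquitin hydrolase that is abundant in neurons and is known to appear in podocytes in glomerular disease.

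The stretches of 250 bases before the transcript start of Uchl1 and Podxl are shown because these genes carry the largest difference for nicotine and for strain. They are RefSeq sequences of build GRCr8, an assembly of a BN rat, and both genes lie on the minus strand. Capitals mark a GC box (GGGCGG) or a TATA box (TATAAA) on either strand. The Uchl1 window is chr14:41849418-41849667 and the Podxl window is chr4:61149132-61149381.

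Uchl1: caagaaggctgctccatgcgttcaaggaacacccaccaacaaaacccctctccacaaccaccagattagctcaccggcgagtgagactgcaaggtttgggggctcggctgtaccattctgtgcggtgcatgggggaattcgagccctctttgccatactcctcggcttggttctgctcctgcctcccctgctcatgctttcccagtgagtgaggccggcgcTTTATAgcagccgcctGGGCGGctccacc

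Podxl: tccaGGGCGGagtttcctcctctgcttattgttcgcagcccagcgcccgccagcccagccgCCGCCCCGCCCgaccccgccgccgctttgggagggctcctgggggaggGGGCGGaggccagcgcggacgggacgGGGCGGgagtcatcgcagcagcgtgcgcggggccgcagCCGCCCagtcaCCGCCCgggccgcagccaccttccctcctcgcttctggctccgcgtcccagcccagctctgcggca

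The Uchl1 stretch lies inside the annotated gene, whose span reaches 76 bases further upstream, while the Podxl stretch lies outside its gene. The Uchl1 stretch held 1 GC box and, on the opposite strand, 1 TATA box. The Podxl stretch held 7 GC boxes, among them a pair that overlaps, and no TATA box, and 76.4% of its bases were G or C. Of 33469 promoter stretches of this length, 30.5% held a GC box and 12.9% a TATA box. Synpo and Nes held 2 GC boxes each, and Nphs1, Ptpro and Tcf21 held none. The Nes and Ptpro stretches also lie inside their annotated genes, which reach 623 and 157 bases further upstream. Tcf21 encodes a factor of the family that binds E-boxes (CANNTG). Of the 7 member genes with an entry, only Nphs1 held an E-box, 63 bases before the start, against 65.5% of all promoter stretches. A match of letters shows no binding, and its absence from a short stretch says nothing of the factor.

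The deposited values are MAS5 signals, an arbitrary linear scale on which different genes cannot be set against each other. A floor was set at 44.4, where 40% of all values lie below, and lower signals were set to it before log2 was taken. A probe set counted as measured in a comparison where its higher signal reached a limit of 88.9, or 2 times that floor. From 59.0% (BN nicotine) to 60.7% (SHR nicotine) of the probe sets on an array lay at or above this floor. Of the 13 member probe sets, 6 were at or above 88.9 on all 4 arrays, 3 on some arrays and 4 on none. Each of the 9 genes had 1 probe set that reached 88.9 on at least 1 array. The labelled tissue was borne out by kidney genes: all 10 proximal tubule markers were measured, and Umod, the urinary protein of the thick ascending limb, read 4043.8 to 5260.3.

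**Figure D1:**
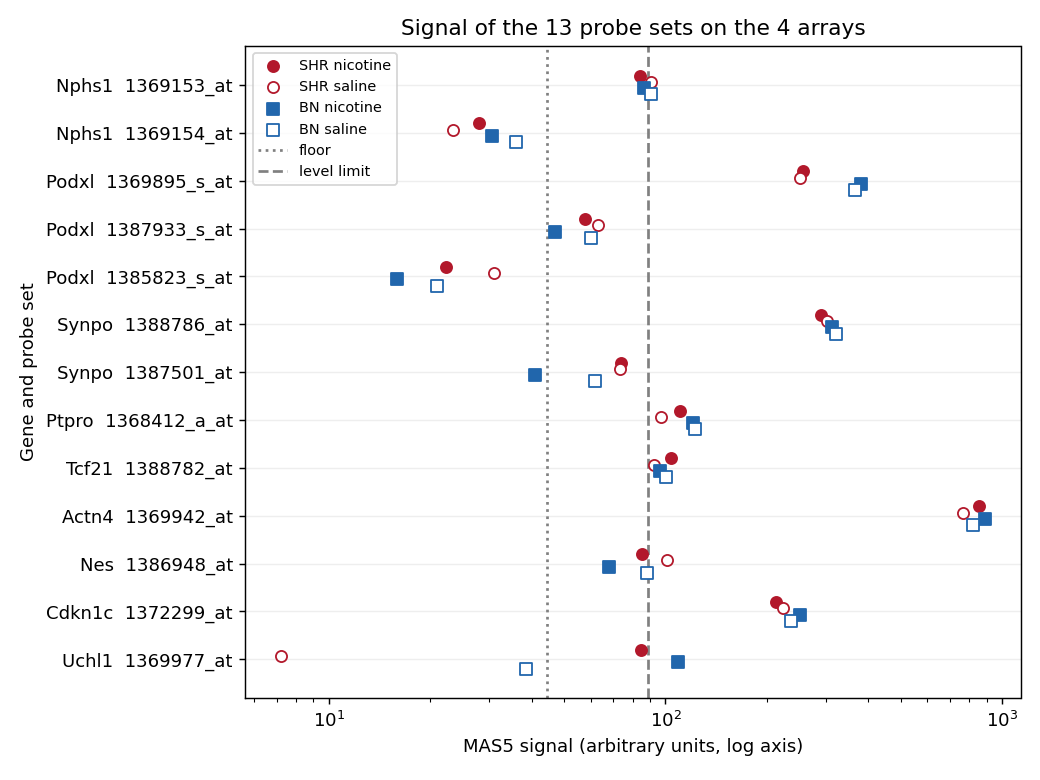
MAS5 signal (arbitrary units, log axis) of each of the 13 probe sets in the 4 pools, with the floor of 44.4 (dotted) and the limit of 88.9 for a measured value (dashed). For Uchl1 both saline pools lie left of the floor and both nicotine pools right of it, while the Podxl probe set 1369895_s_at separates BN from SHR.

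In short, 1 member stood apart by strain and 1 by nicotine. Podxl was 1.47-fold lower in SHR than in BN, averaged over treatments, and passed the test over all probe sets. For Uchl1 the nicotine pool exceeded the saline pool by at least 1.90-fold in SHR and by at least 2.44-fold in BN, and the average did not pass. Podxl and the other 7 genes differed by less than 1.5-fold in each of the 4 comparisons between pools, as read from their brightest probe set. The averages were tested in limma, with strain and treatment as additive terms over all 4 arrays, with Benjamini-Hochberg adjustment over all probe sets tested and a threshold of 0.05. That model leaves 1 residual degree of freedom, which is the change of the nicotine difference between the strains. A nicotine response of 1 strain only would thus count as error. Most of the error was borrowed from other probe sets of like signal. Without replicate pools, the p-values measure neither the spread between like pools nor that between animals.

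Nphs1 encodes nephrin, the adhesion protein that bridges the slit diaphragm. Its brighter probe set, 1369153_at, read 83.8 in SHR nicotine, 90.6 in SHR saline, 86.4 in BN nicotine and 90.7 in BN saline. Both saline pools were above both nicotine pools, by small steps, and the saline pools of the strains were nearly equal. The nicotine difference was -0.09 on the log2 scale (SE 0.17, adjusted p = 0.998 with limma), and its 95% interval allows at most 1.38-fold. The other probe set, 1369154_at, read 23.4 to 35.9, below the floor on every array, so it gave no ratio.

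Podxl encodes podocalyxin, the sialic acid-rich protein of the surface coat, which vascular endothelium also makes. Probe set 1369895_s_at read 256.3 in SHR nicotine and 251.3 in SHR saline, against 380.4 in BN nicotine and 364.6 in BN saline. The SHR pools lay below the BN pools without overlap, while nicotine and saline pools of a strain lay close together. The strain difference, SHR minus BN, was -0.55 on the log2 scale (SE 0.09, adjusted p = 0.000354 with limma). It was -0.54 between the saline pools and -0.57 between the nicotine pools. Among the 7 member probe sets tested, Podxl was the 1 that passed. Of all 7047 probe sets tested, 9.39% passed as lower in SHR and 8.63% as higher, and 30.4% had an unadjusted p under 0.05. By size alone, 0 members reached 1.5-fold between strains, of 8 measured under saline and 7 under nicotine; of all probe sets, 4.17% did as higher in SHR and 3.96% as lower under saline, and 4.2% and 4.25% under nicotine.

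The other Podxl probe sets did not show this order. Probe set 1387933_s_at read 57.8 and 62.8 in SHR and 47.0 and 59.9 in BN, nicotine before saline, with an average strain ratio of 0.18 on the log2 scale. Probe set 1385823_s_at read 16.0 to 31.0, below the floor throughout. Both stayed under the limit of 88.9 on every array and were not tested. In Affymetrix naming, the suffix _s_at marks probes that can match more than 1 transcript, and all the Podxl probe sets carry it. So the strain difference of Podxl rests on a single measured probe set. It lost its call with no filter on low signals (adjusted p = 0.31) and without the BN nicotine array (adjusted p = 0.0522 with limma), and kept it in the other 12 of 14 alternatives, where the adjusted p was as low as 4.44e-05.

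In RNA of whole kidney, fewer cells of a type and less RNA per cell cannot be told apart. Beside the Podxl difference, 6 of 10 proximal tubule markers passed as higher in SHR and 1 as lower. That is 70.0%, against 18.0% of all probe sets. The summed signal of the 10 was 25316.9 and 25759.4 in SHR against 22427.6 and 22384.0 in BN. Of 10 endothelial markers tested, 2 passed as higher in SHR, Kdr and Esam, and 1 as lower, Vwf. That is 30.0%, against the same 18.0%. The summed signal of these endothelial markers was 2379.7 and 2286.8 in SHR and 2263.2 and 2222.9 in BN. Such a sum adds signals of different genes, so it does not measure the share of endothelial RNA. Vwf had a strain difference of -1.59 on the log2 scale, with its SHR signals below the floor. Of 4 immune markers tested for strain, 3 passed as higher in SHR (C1qa, Lyz2 and Fcer1g), where 18.0% of all probe sets passed. The median strain difference of those 4 was 0.56 on the log2 scale. For beta-actin, the signal at the 3' end over that at the 5' end was 1.34 and 1.39 in SHR and 1.49 and 1.54 in BN. For Gapdh this ratio was 1.107 and 1.002 in SHR and 1.094 and 1.075 in BN, where the strains overlapped. The part of cell makeup and of RNA integrity in the Podxl difference was not tested.

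Ptpro encodes a receptor tyrosine phosphatase of the podocyte's apical membrane, once named GLEPP1. It read 110.8 in SHR nicotine, 96.9 in SHR saline, 120.7 in BN nicotine and 122.8 in BN saline. The order of the strains was the same as for Podxl, with both SHR pools below both BN pools. The difference was smaller, -0.23 on the log2 scale (SE 0.15, adjusted p = 0.333 with limma), and its 95% interval ran from -0.56 to 0.09.

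**Figure D2:**
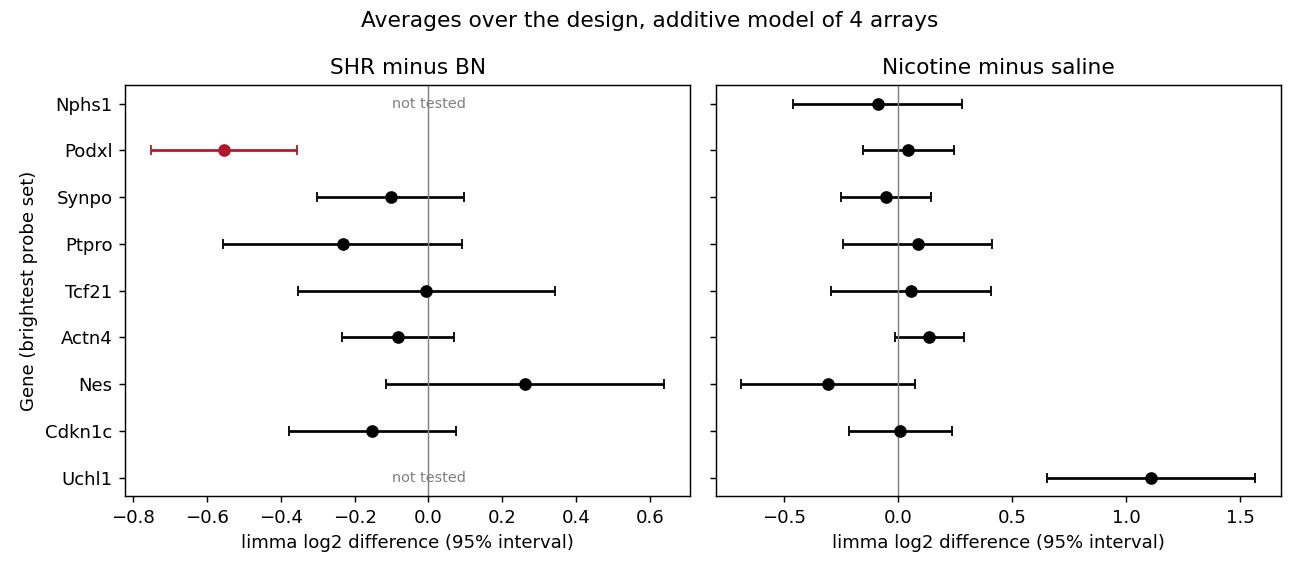
limma log2 differences with 95% intervals for the brightest probe set of each gene, SHR minus BN (left) and nicotine minus saline (right), red where the adjusted p was under 0.05. Podxl is the only member in red, at -0.55; the Uchl1 interval understates its error, since both saline values were set to the floor.

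Synpo encodes synaptopodin, an actin-binding protein of foot processes and of dendritic spines. Its brighter probe set, 1388786_at, read 289.0 in SHR nicotine, 302.0 in SHR saline, 312.2 in BN nicotine and 322.1 in BN saline. The SHR pools were again below the BN pools. The average difference was -0.10 in log2 (SE 0.09), with an adjusted p of 0.506 in limma, and the interval allows at most 1.23-fold. The dimmer probe set, 1387501_at, gave the opposite order. It read 73.8 in SHR nicotine, 73.3 in SHR saline, 41.1 in BN nicotine and 61.8 in BN saline. It stayed below 88.9 throughout and was not tested.

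Actn4 encodes alpha-actinin-4, which cross-links actin and is mutated in a familial form of glomerulosclerosis. It is made by many kidney cells besides podocytes. Actn4 read 854.0 in SHR nicotine, 766.0 in SHR saline, 891.4 in BN nicotine and 822.3 in BN saline. Both nicotine pools were above both saline pools, by 1.11-fold in SHR and 1.08-fold in BN. The average of 0.14 on the log2 scale (SE 0.07) had an adjusted p of 0.962 with limma, with an upper bound of 1.22-fold.

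Nes encodes nestin, an intermediate filament protein of podocytes, of progenitor cells and of some endothelium. It read 85.2 in SHR nicotine, 100.8 in SHR saline, 67.9 in BN nicotine and 88.0 in BN saline. In each strain the nicotine pool was the lower, by 1.18-fold in SHR and 1.30-fold in BN. The average was -0.31 on the log2 scale (SE 0.18, adjusted p = 0.988 with limma). Only the SHR saline pool reached 88.9, so the BN ratio lies below the limit for a measured value. The strain difference was 0.26 (SE 0.18, adjusted p = 0.353 with limma), higher in SHR under both treatments.

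Tcf21 encodes a basic helix-loop-helix factor needed for glomeruli to form, and kidney stromal cells also make it. It read 103.7 in SHR nicotine, 92.6 in SHR saline, 96.5 in BN nicotine and 100.3 in BN saline. All pools lay within 1.12-fold, with the highest and the lowest both in SHR. Neither average stood out, at -0.01 for strain and 0.05 for nicotine on the log2 scale, with adjusted p of 0.985 and 0.998 in limma.

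Cdkn1c encodes p57, the cyclin-dependent kinase inhibitor that marks podocytes at rest. Its signal was 213.3 in SHR nicotine, 223.9 in SHR saline, 250.2 in BN nicotine and 235.7 in BN saline. SHR was below BN under both treatments, with an average of -0.15 in log2 (SE 0.11) and an adjusted p of 0.367 in limma. The nicotine ratio had opposite signs in the strains, -0.07 in SHR and 0.09 in BN, both far under 1.5-fold.

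Counted together, 4 of the 9 measured members (Podxl, Ptpro, Synpo and Cdkn1c) had both BN pools above both SHR pools, and 0 had the reverse. Over all 7417 probe sets measured on some array, 28.1% had both BN pools above and 30.4% had both SHR pools above. The median strain difference of the 7 members tested was -0.10 on the log2 scale, against 0.0024 over all 7047 tested. Nphs1 did not reach the limit in either strain's mean and Uchl1 did not either, so neither was tested for strain. For nicotine, Actn4 and Uchl1 had both nicotine pools on top and Nphs1 and Nes had both below, where 10.1% of probe sets did so in each direction.

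Uchl1 read 84.4 in SHR nicotine and 7.19 in SHR saline. In BN it read 108.6 in the nicotine pool and 38.6 in the saline pool. Both saline pools were below the floor of 44.4 and both nicotine pools well above it, so the groups did not overlap. Only the BN nicotine pool reached 88.9. The ratios are therefore lower bounds: at least 1.90-fold in SHR, a pair below the limit for a measured value, and at least 2.44-fold in BN.

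Few probe sets differed that far. In BN, 0.0576% of 6945 measured probe sets were at least 2-fold higher under nicotine, and Uchl1 ranked 2 by its ratio. Among the 2858 whose higher signal lay under 2 times the limit, as that of Uchl1 did, the share was 0.105%. At 1.5-fold, 0.734% were higher and 0.893% lower in BN, where Uchl1 was the 1 of 8 measured members past it. In SHR, 1.07% of 7087 were higher and 0.903% lower, and 0 of 8 measured members were past it. In all, 0.0539% of 7417 probe sets were at least 1.5-fold higher under nicotine in both strains. That is 4 probe sets, Uchl1 included, though its SHR pair lay below the limit for a measured value. Uchl1 counted as measured in BN only through its nicotine pool, and was chosen with earlier results of these data known. Its rank and these shares are therefore descriptions and no test of it.

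Averaged over strains, Uchl1 stood 1.11 higher under nicotine on the log2 scale (SE 0.21), the largest positive value of 6929 probe sets. Its adjusted p was 0.112 with limma, so it did not pass, and no probe set did: 0.0% were called, the smallest adjusted p was 0.068, and 378, or 5.46%, had an unadjusted p under 0.05. Uchl1 entered this test only through its nicotine pools, and both of its saline values had been raised to the floor, which makes them equal by construction. With the floor at the 20th percentile the difference was 1.97 (adjusted p = 0.0628 with limma). With log2 of the signal plus the floor in place of flooring, the difference was 1.10 and the adjusted p was 0.00832 with limma, past the threshold. Over the other 10 of 11 alternatives that kept it, the adjusted p of Uchl1 ran from 0.0628 to 1.0. It was too dim to be tested with a floor at the 60th percentile, with the limit set on the mean of 4 arrays, or without the BN nicotine array.

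**Figure D3:**
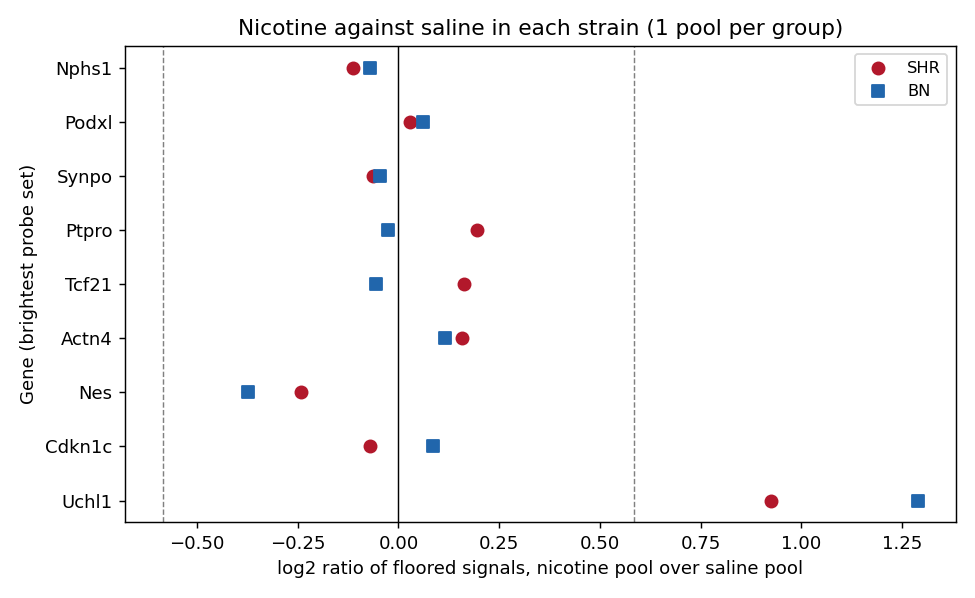
log2 ratio of floored signals, nicotine pool over saline pool, in SHR (circles) and BN (squares) for the brightest probe set of each gene; dashed lines mark 1.5-fold. Uchl1 lies at 0.93 and 1.29, as lower bounds, and every other member lies between -0.37 and 0.19.

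The other 8 members tested for nicotine had log2 differences from -0.31 to 0.14 and adjusted p from 0.962 to 0.998 with limma. The median of all 9 members was 0.04, against 0.0010 over all probe sets tested. The Uchl1 bounds do not order the strains, since both saline pools were set to the same floor. With a floor at the 20th percentile, or 15.4, the log2 ratio was at least 2.45 in SHR and 1.49 in BN, so the order turned. The difference between strains was not tested.

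Neurons are the best known source of Uchl1, and most neuron markers were near background. Of 19 neuron markers on the array, 17 stayed below 88.9 on all arrays. Of those 17, Syn1 and Npy were above the floor of 44.4 on some array. Syn1, a synaptic vesicle protein, read 73.6 in SHR nicotine, 49.9 in SHR saline, 45.5 in BN nicotine and 43.3 in BN saline. Npy, a neuropeptide, read 69.8, 60.3, 64.2 and 49.7 in the same order, so both were higher under nicotine in each strain. The other 15 lay below the floor on all arrays. Of the measured ones, Mapt, a microtubule protein, was lower under nicotine in both strains, by a log2 ratio of -0.07 for SHR and -0.09 for BN. Nefm, a neurofilament subunit, was lower in SHR, at -0.32, and higher in BN, at 0.12. Together Mapt and Nefm summed to 534.2 and 576.8 in SHR and 657.2 and 680.4 in BN, nicotine before saline.

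Of 11 immune markers, 5 were measured. For strain, 3 of the 4 tested passed in limma, all higher in SHR, and for nicotine 0 of the 4 tested did. The 5 summed to 4001.8 in SHR nicotine, 3406.6 in SHR saline, 2831.0 in BN nicotine and 2555.3 in BN saline, mostly from Lyz2 and Cd74. Lyz2, a macrophage lysozyme, had a nicotine difference of 0.24 (adjusted p = 0.403 with limma). All 4 tested had an average nicotine difference above 0, with a median of 0.14 on the log2 scale, against 0.001 over all probe sets tested. Cd74, Lyz2 and Laptm5 were higher under nicotine in both strains. C1qa, a complement subunit, had a log2 ratio of -0.16 in SHR and 0.37 in BN. Fcer1g, an antibody receptor chain, had 0.21 in SHR and -0.03 in BN. Ptprc, the common leukocyte marker, was below the floor on all 4 arrays. The part of neuronal and of immune RNA in the Uchl1 difference was not tested.

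The 5 named probe sets with the profile nearest to that of Uchl1 were those of Cstpp1, Meaf6, Qtrt1, Rbmx and Bin1, among 6402 candidates. The measure was the Euclidean distance between log2 signals over the 4 arrays, each centred on its mean. The distances ran from 0.50 to 0.65, where the whole Uchl1 profile has a length of 1.14. Cstpp1 read 98.5 and 84.3 in the SHR and BN nicotine pools and 53.7 and 46.0 in the saline pools. Like Uchl1, all 5 were higher under nicotine in both strains, which the measure itself selects, and none reached the size of the Uchl1 difference in BN.

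**Figure D4:**
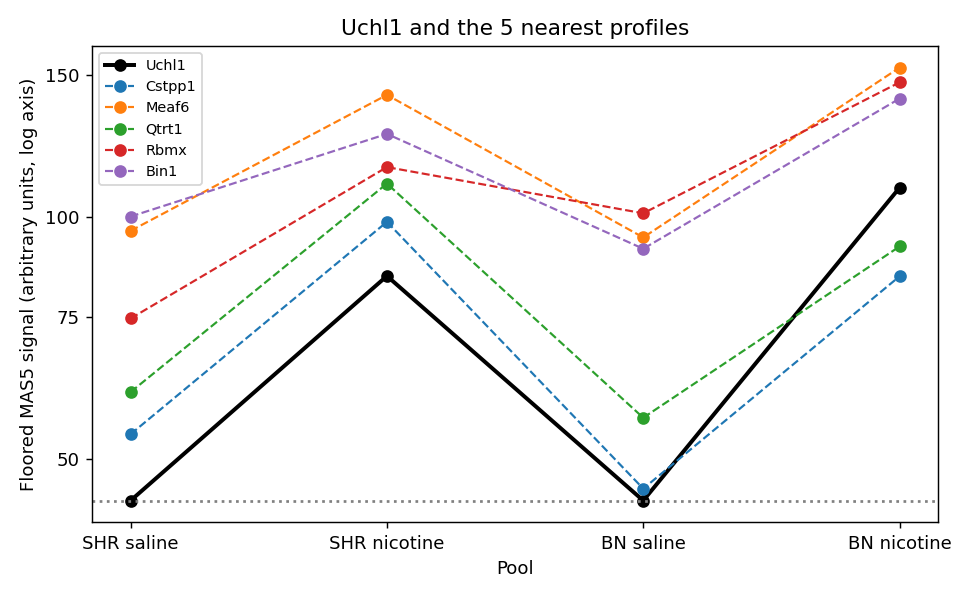
Floored MAS5 signal (arbitrary units, log axis) of Uchl1 and of the 5 nearest profiles in the 4 pools; the dotted line is the floor of 44.4. Within each strain every line is higher for nicotine, and Uchl1 starts from the floor in both saline pools.

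Among other slit diaphragm genes, 10 of 16 on the array were measured, Nphs1 included. For strain, 2 of 8 tested passed: Prkci, an atypical protein kinase C of cell polarity, was 1.36-fold higher in SHR, and Fat1, a giant cadherin, was 1.23-fold lower. That is 25.0% of those tested, against 18.0% of all probe sets, and the list's median was -0.08 on the log2 scale. For nicotine 0 of 9 passed in limma. Ddn, which encodes dendrin, a partner of nephrin that can move to the nucleus, read 93.0 in SHR nicotine against 47.7 in SHR saline, 1.95-fold higher. In BN it read 75.7 and 72.0, 1.05-fold higher, and it fell short of the limit for the averages. The podocin, Cd2ap and Kirrel1 genes were not analysed here.

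Foot process cytoskeleton genes were close to the background too, with 2 of 15 past the threshold for strain, or 13.3%. Dnm1, a dynamin of vesicle scission, was 2.08-fold lower in SHR; its SHR pools read 120.1 and 103.6 and its BN pools 226.6 and 237.5. Myh9, the non-muscle myosin heavy chain linked to glomerular disease, was 1.23-fold higher. Among surface genes Podxl was the 1 of 8 that passed, or 12.5%, against 18.0% of all probe sets. Efnb1, an ephrin ligand found at the slit diaphragm, had a nicotine difference of -0.44 on the log2 scale (adjusted p = 0.74 with limma), and read 80.8 in SHR nicotine, 95.9 in SHR saline, 76.5 in BN nicotine and 119.3 in BN saline.

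Of the podocyte transcription factors, 1 of 8 tested passed for strain, Klf15, which was 1.22-fold lower in SHR. That is 12.5%, against 18.0% of all probe sets. Klf6 had a strain difference of -0.44 (adjusted p = 0.118 with limma). Wt1, a transcription factor that podocytes depend on, read 55.6 to 66.7. It lay above the floor but below the limit on every array, so it was not tested. No cell cycle inhibitor of 4 tested passed in limma; Cdkn1b, a relative of Cdkn1c, had a strain difference of 0.22 (adjusted p = 0.141).

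Genes of the glomerular basement membrane and its anchorage were all measured, 17 of 17. Of these, 4 passed for strain, or 23.5%, against 18.0% of all probe sets. Parva, which links integrins to actin, was 1.48-fold lower in SHR. Its partner Lims1 was 1.39-fold higher, the integrin subunit Itga3, through which podocytes hold the membrane, 1.27-fold higher, and Col4a1 1.19-fold higher. Lamb2, the laminin chain of the mature glomerular membrane, read 172.1 and 168.7 in SHR and 216.1 and 206.3 in BN, a difference of -0.31 (adjusted p = 0.0742 with limma). Lamb2 thus had the strain order of Podxl without passing. The Col4a3 gene was not analysed here. Of 8 secreted factors and receptors tested, 2 passed: Plat, tissue plasminogen activator, 1.45-fold lower and Bmp7, a nephron survival factor, 1.26-fold lower in SHR. That is 25.0%, against 18.0% of all probe sets.

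The injury list, which holds Uchl1 and Nes, had 7 of 9 tested members above 0 for nicotine, with a median of 0.18 on the log2 scale, and 0 passed in limma. Vim, the intermediate filament vimentin, read 265.6 in SHR nicotine, 238.5 in SHR saline, 381.8 in BN nicotine and 227.4 in BN saline, with an average of 0.45 (adjusted p = 0.394 with limma). Krt18, an epithelial keratin, read 134.1, 125.2, 128.1 and 78.7 in the same order. In BN these genes and Uchl1 were the 3 injury genes of 8 measured at least 1.5-fold higher, against 0.734% of all probe sets. In SHR 0 of 8 were, against 1.07%. In BN, Uchl1 and Krt18 counted as measured only through their nicotine pool. Vim and Krt18 were named after their values were seen, so the BN count is no test of the list. For strain, 3 of 8 passed, all lower in SHR: S100a4, a calcium-binding protein of fibroblasts and leukocytes, the protease Ctsl, and the keratin Krt8, where 9.39% of all probe sets passed as lower. Desmin and Cd80, often used as signs of podocyte injury, stayed below 88.9 on all arrays, at 33.9 to 49.5 and 3.56 to 5.0.

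Uchl3, the closest relative of Uchl1 on the array, read 137.8 and 145.4 in SHR and 132.4 and 148.0 in BN, nicotine before saline. It was lower under nicotine in both strains, with an average of -0.12 (adjusted p = 0.998 with limma). In the list of ubiquitin hydrolases and ubiquitin genes, 1 of 7 passed for strain, Usp7, 1.42-fold higher in SHR. That is 14.3%, against 18.0% of all probe sets. For nicotine 0 of 8 passed in limma. The Uchl1 difference was thus larger than that of the other ubiquitin genes measured, whose difference from it was not tested.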

How the data were processed

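Signals of 15923 probe sets on 4 arrays were analysed as deposited. The deposited values are linear-scale intensity, which the submitters' processing notes credit to MAS5 without settings. Each array has a trimmed mean of 150.04. The 57 control probe sets were left out. Gene symbols came from the platform annotation, updated through gene identifiers to RefSeq; 12783 probe sets had 1 symbol, 312 several and 2771 none. The averages were fitted in limma 3.58.1 (R 4.3.3), lmFit and eBayes with an intensity trend, on probe sets whose higher group mean reached 88.9; the prior degrees of freedom were 16.41 for strain and 14.26 for nicotine. Differences between single pools were described by size only. In simulated arrays with 6949 probe sets fitted, 1.5-fold changes were found for 60 of 67 by the strain fit and 52 of 67 by the nicotine fit. These fits made 14 and 5 false calls. Changes were planted only in probe sets whose mean over the 4 arrays reached 88.9, and many at once, which eases the adjustment. So the shares found do not give the power for dim probe sets such as Uchl1, nor where few probe sets change. Alternatives changed the floor, normalisation, filter, probe sets, trend, model and arrays. Genes were named by rule: all member probe sets, the members of each list past the threshold (at most 4), otherwise those with the largest difference until 2 were named, a few podocyte genes whatever their values, and the 5 nearest profiles to Uchl1. From the parietal, mesangial, proximal tubule and distal tubule lists, the genes this rule picked are left unnamed here, except Umod. Of the parietal, mesangial and distal tubule markers, 2 of 5, 0 of 2 and 4 of 9 passed for strain, where 18.0% of all probe sets did. Members and lists were chosen with earlier results of these data known. Vim, Krt18, Des, Cd80, Uchl3, Ptprc, Syn1 and Npy fall outside the rule and were named after their values were seen.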

Additional observations from a re-analysis of the deposited data

How the results depend on the processing

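The number of probe sets called between strains, 1270, was 739 after quantile normalisation, 834 after cyclic loess and 611 with no trend. It was 0 when dim probe sets were kept, where 1719 had an unadjusted p under 0.05 in limma; it ran from 373 to 610 when 1 array was left out. The member count of 1 for strain became 0 with no filter and 0 to 1 without an array. For nicotine, 12 probe sets passed with the floor at the 60th percentile, 4 with log2 of signal plus the floor, of which 1 is a member (Uchl1), and 3 with the limit on the mean of 4 arrays; the cause was not tested. Past 1.5-fold, counts were 140 for nicotine in SHR, 113 in BN, 579 for strain under saline and 604 under nicotine. A floor at the 20th percentile made them 935, 727, 1551 and 1580, a floor at the 60th made them 29, 18, 278 and 280, and adding the floor to each signal made them 33, 28, 327 and 329. The Uchl1 log2 ratio in BN was 1.49, 0.17 and 0.88 in these settings; at the 20th percentile neither BN signal is floored.

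Leaving out 1 array turned the sign of small values that had not passed: Tcf21 for strain ranged from -0.088 to 0.076 and, for nicotine, Podxl from -0.24 to 0.33, Synpo from -0.11 to 0.0013, Ptpro from -0.086 to 0.26, Tcf21 from -0.0039 to 0.11 and Cdkn1c from -0.11 to 0.12. These fits hold only the compared factor, so they mix strain into nicotine. No pairing of replicates was possible because each group was 1 pool on 1 array. The additive model already compares treatments within strains. Signals near background limit Uchl1, Nphs1, Nes and Wt1, and 1 pool per group limits all values.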
